A study of Mus musculus with 2 samples.

Results

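Ppbp-high cells were the few barcodes of lineage-depleted mouse bone marrow that carried the RNA of mature megakaryocytes and platelets, 73 of 23776 kept barcodes over both libraries. They were taken as barcodes with at least 10 CP10K of Ppbp and at least 5 CP10K of Pf4, where CP10K counts a gene's UMIs (unique molecular identifiers, 1 per transcript caught) in every 10000 of the barcode. Barcodes with 2 CP10K or more of the red cell gene Slc4a1, or 20 CP10K or more of the neutrophil granule genes Elane and Prtn3 together, were left out. A barcode was kept from 1000 UMIs and 500 detected genes upwards, if mitochondrial transcripts made up 10% of its UMIs or less. The Nat10 cKO library gave 52 Ppbp-high cells of 11239 kept barcodes and the WT library 21 of 12537. Ppbp, Pf4, Slc4a1, Elane and Prtn3 chose these cells, so their values are given as description only. Genes that vary with Ppbp are not independent of the choice either.

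The Nat10 cKO group was Lin- bone marrow cells of C57BL/6 mice with a conditional knockout of Nat10, and the WT group was Lin- bone marrow cells of WT C57BL/6 mice. Both were depleted of mature lineages with biotin-labelled antibodies and read as 3′ tags in droplets. The NAT10 protein is an acetyltransferase of RNA cytidines, and the series addresses its part in the upkeep and differentiation of blood stem cells. The series text names 5 mice, no label ties a cell to a mouse, and the promoter or Cre that drives the deletion, the deleted part of the gene and the age of the mice are not given in the labels. Since 1 library stands for each genotype, the differences below carry no test. All intervals are 95% intervals that cover counting error only, and cells of 1 library are not replicates.

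Megakaryocytes are the large polyploid cells of the marrow that shed platelets, small cell fragments without a nucleus. While they mature they fill alpha granules with clotting and adhesion proteins, put the receptors for von Willebrand factor, fibrinogen and collagen on their surface, and build the tubulin and actomyosin frame that forms proplatelets. Ppbp encodes the platelet chemokine precursor pro-platelet basic protein, and Pf4 encodes platelet factor 4, a second chemokine of the alpha granule. Both mark late stages of the lineage, and Pf4 is switched on earlier than Ppbp.

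Ppbp and Pf4 are neighbours on mouse chromosome 5, and their promoters are shown because these 2 genes define the cells. The RefSeq windows of 300 bases (250 before and 50 after the gene start, build GRCm38.p6, not the build of the count files) start 3917 bases apart on the plus strand, Ppbp at chr5:90768268-90768567 and Pf4 at chr5:90772185-90772484. Capitals mark the words searched, AGATAA or TGATAA (bound by GATA factors) and AGGAAG or CGGAAG (bound by ETS factors), on either strand, with no overlap between them. Pf4 has 1 word of each kind, and Ppbp has none in this window.
Ppbp: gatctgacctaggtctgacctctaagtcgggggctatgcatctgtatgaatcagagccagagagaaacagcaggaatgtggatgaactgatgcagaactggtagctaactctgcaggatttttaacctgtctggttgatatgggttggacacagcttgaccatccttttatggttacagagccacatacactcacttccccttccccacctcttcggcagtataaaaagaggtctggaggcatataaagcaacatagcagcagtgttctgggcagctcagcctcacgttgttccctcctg
Pf4: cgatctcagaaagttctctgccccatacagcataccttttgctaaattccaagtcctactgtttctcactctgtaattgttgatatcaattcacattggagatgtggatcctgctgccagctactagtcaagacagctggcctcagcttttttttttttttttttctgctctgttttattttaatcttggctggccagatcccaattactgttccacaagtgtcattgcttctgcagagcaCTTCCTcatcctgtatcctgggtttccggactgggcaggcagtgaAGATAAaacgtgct
Of 108 genes (5 lists of platelet genes along with Ppbp and Pf4), 91 had a RefSeq window. A GATA word was found in 18 of these 91 windows (19.8%), against 20.96% of 27025 genes, and an ETS word in 56 (61.5%), against 49.8%. A word match describes letters only.

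The label of mature megakaryocyte and platelet-like cells was set beside 14 markers that the thresholds did not use (Clu, Gp9, Treml1, Itga2b, Itgb3, Gp1ba, Gp1bb, Gp5, Gp6, Vwf, Tubb1, Cd9, Rgs18 and F2rl2). Clu, Gp9 and Treml1 were named as markers along with the label, so they describe these cells and do not check it. Counts over the 14 include them. A cKO Ppbp-high cell held a UMI of 1 to 14 of the 14 markers, with a median of 10, and a WT one of 1 to 13, with a median of 6. At least 3 of the markers were found in 49 of 52 cKO cells and 18 of 21 WT cells, and none of Clu, Gp9 and Treml1 in 4 cKO and 5 WT cells. After each cell was thinned to 1000 UMIs, Itga2b was seen in 71.2% of cKO and 57.1% of WT Ppbp-high cells. The same share was 0.4% of Slc4a1-positive cKO barcodes and 0.6% of Slc4a1-positive WT barcodes, 500 drawn from each, which should lack Itga2b and had median depths of 17585.5 and 21647.5 UMIs before thinning. Without thinning the shares were 78.8% of cKO and 71.4% of WT Ppbp-high cells, against 7.4% and 7.0% of those barcodes. Low-Ppbp cells showed Itga2b after thinning in 22.4% of cKO and 25.1% of WT barcodes, and without thinning in 57.0% and 54.6%. Gp9, Treml1 and Clu were seen after thinning in 53.8%, 53.8% and 51.9% of cKO and 42.9%, 38.1% and 38.1% of WT Ppbp-high cells, against at most 18.1% of low-Ppbp cells. Gp1bb was seen in 13.5% of cKO and 4.76% of WT Ppbp-high cells and Gp6 in 28.8% and 14.3%. Gp1ba and F2rl2 ran the other way, in 7.69% and 17.3% of cKO and 14.3% and 38.1% of WT Ppbp-high cells. Nat10 rested on 8 UMIs in 7 cKO cells and on 1 UMI in 1 WT cell, so its level could not be compared in these cells. In low-Ppbp cells it stood at 44.5 CPM (232 UMIs) in the cKO and 57.1 CPM (304 UMIs) in the WT library, and among other kept barcodes it averaged 0.329 CP10K and 0.414 CP10K. As the deleted part of the gene is not given, these 3′ tags do not check the knockout label. No Ppbp-high cell was called a doublet, and no Ppbp-high barcode occurred in both libraries, while 40 kept barcodes did.

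Ppbp-high cells took a larger share of the Nat10 cKO library than of the WT library. They made up 0.463% of kept cKO barcodes (exact binomial interval 0.346 to 0.606%) and 0.168% of kept WT barcodes (0.104 to 0.256%), a ratio of 2.76 (1.64 to 4.83). Pf4-positive barcodes with Ppbp under 10 CP10K and the same limits on other lineages, called low-Ppbp cells here, had nearly equal shares, 2.46% (277 barcodes) in the cKO library and 2.51% (315 barcodes) in the WT library, a ratio of 0.981 (0.832 to 1.16). Among these and the Ppbp-high cells together, Ppbp-high cells were 15.8% of the cKO and 6.25% of the WT barcodes, a ratio of 2.53 (1.497 to 4.42). The ratio of shares of kept barcodes was 2.32 with a Ppbp threshold of 5 CP10K, which counted 75 cKO and 36 WT barcodes, and 2.63 with one of 20 CP10K, which counted 33 and 14. Since genotype, library and mice come together in these 2 libraries, they cannot be told apart.

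Ppbp itself ran over a wide range. The lowest, median and highest Ppbp levels were 10.7, 30.9 and 232 CP10K in cKO cells and 10.4, 38.5 and 174 CP10K in WT cells. Pf4 levels were 10.8, 133 and 449 CP10K in cKO cells and 34.7, 112 and 391 CP10K in WT cells. The ranges of the libraries overlapped almost fully for both genes. From 50 to 200 CP10K of Ppbp were held by 17 of 52 cKO cells and 5 of 21 WT cells, and 1 cKO cell held more. Just inside the threshold stood cKO cells at 10.7, 10.8 and 12.3 CP10K and WT cells at 10.4, 14.0 and 14.9 CP10K. Just outside it stood cKO barcodes at 9.68, 9.43 and 9.39 CP10K and WT barcodes at 9.94, 9.80 and 9.72 CP10K. The outside ones include 1 deep WT barcode, of 75500 UMIs with 169 CP10K of Pf4, which had 9.80 CP10K of Ppbp. Of kept barcodes with at least 10 CP10K of Ppbp, 3 of 55 in the cKO library and 1 of 22 in the WT library failed another limit.

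Most Ppbp-high cells were shallow, and the deep ones came from the cKO library. Median depth was 2207 UMIs (1006 to 72080) in cKO Ppbp-high cells and 1818 (1020 to 8699) in WT ones, against 21119 and 18600 UMIs in all kept barcodes. Over 10000 UMIs were held by 12 of 52 cKO cells and 0 of 21 WT cells. Of all kept barcodes over 10000 UMIs, Ppbp-high cells were 12 of 6944 in the cKO library (0.173%). In the WT library they were 0 of 7629, with an exact upper limit of 0.0483%. Low-Ppbp cells were deep about as often in both libraries, in 114 of 277 cKO and 136 of 315 WT barcodes. The absence of deep WT cells depends on the threshold: with Ppbp of at least 5 CP10K there were 19 deep cKO barcodes and 1 deep WT barcode. At or below 10000 UMIs the share ratio of Ppbp-high cells was 2.18 (1.25 to 3.89), and under 3000 UMIs, with 32 cKO and 17 WT cells, it was 2.92 (1.57 to 5.60). The 12 deep cKO cells held 398958 of the 494200 UMIs summed over cKO Ppbp-high cells, while the WT sum was 50477 UMIs. Summed levels of all cells thus set deep cKO cells against shallow WT cells, and levels below are given for cells of at most 10000 UMIs (40 cKO and 21 WT) and for the deep cKO cells apart, a split chosen after seeing the data.

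**Figure D1:**
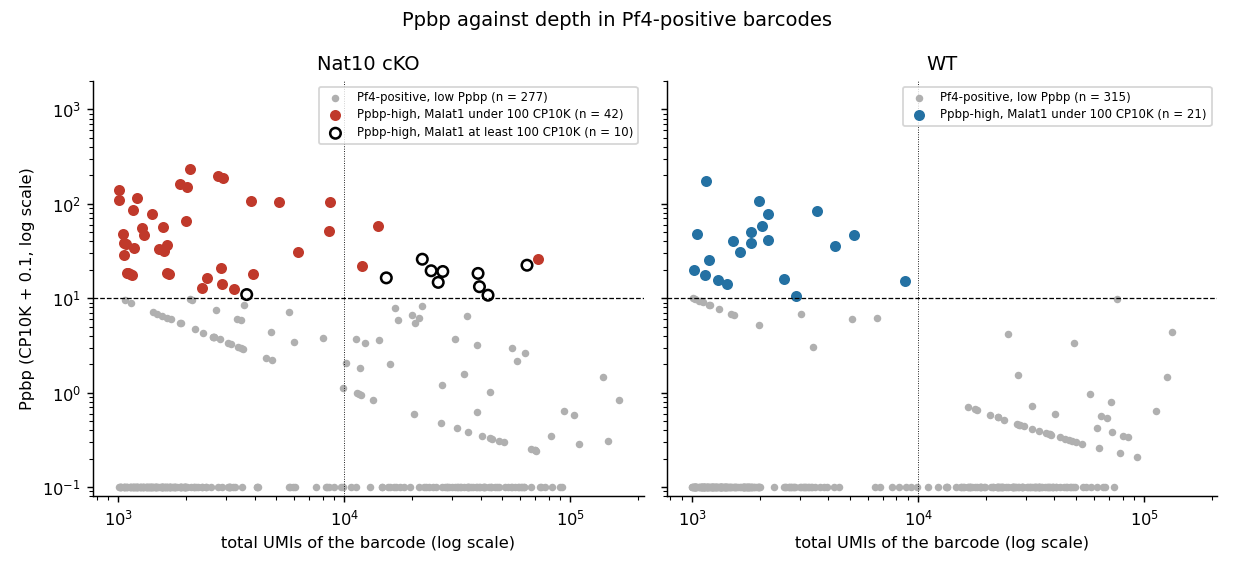
Ppbp level (CP10K with 0.1 added, log scale) against total UMIs (log scale) of every Pf4-positive barcode, Nat10 cKO left and WT right. The dashed line is the Ppbp threshold of 10 CP10K and the dotted line 10000 UMIs; the 12 Ppbp-high cells right of it are all from the cKO library, and open circles are cells with at least 100 CP10K of Malat1.

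The deep cKO cells differed from the shallow cells of both libraries in Malat1, a long non-coding RNA that stays in the nucleus, which was chosen after its values were seen. Its lowest, median and highest levels were 0.711, 309 and 1127 CP10K in the 12 deep cKO cells, 0, 9.12 and 233 CP10K in the 40 shallower cKO cells, and 0, 7.02 and 30.8 CP10K in the 21 WT cells. Of the deep cells 9 exceeded 100 CP10K, 7 lay above every shallower cell and 3 lay within the range of the WT cells. The medians of all kept barcodes were 30.01 CP10K in the cKO and 40.6 CP10K in the WT library, so the median shallow Ppbp-high cell of either library stood below them and most deep ones above. Low-Ppbp cells over 10000 UMIs had median Malat1 levels of 35.4 CP10K in the cKO and 64.3 CP10K in the WT library. Among these deep low-Ppbp cells 20 of 114 cKO and 23 of 136 WT barcodes held at least 100 CP10K, up to 1404 CP10K in the cKO and 432 CP10K in the WT library, so high Malat1 was shared with low-Ppbp cells. The WT barcode at 432 CP10K had 4.03 CP10K of Ppbp, 26.6 CP10K of Tubb1 and 25.4 CP10K of Vwf. Ribosomal protein genes took a median of 5.20% of the UMIs of the deep cKO cells, 10.2% in all cKO Ppbp-high cells and 14.5% in WT ones, against 22.4% and 17.7% in all kept barcodes.

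Within the cKO library, transcription factors of the megakaryocyte lineage had a higher summed level in deep than in shallower Ppbp-high cells. The summed level of 17 such factors averaged 62.5 CP10K in the deep cKO cells, against 12.4 CP10K in cKO cells under 3000 UMIs and 22.6 CP10K in WT cells under 3000 UMIs. From 3000 to 10000 UMIs it averaged 18.2 CP10K in 8 cKO cells (12.9 to 24.4) and 50.2 CP10K in 4 WT cells (34.7 to 68.1), ranges that did not overlap. Low-Ppbp cells of all depths averaged 41.1 CP10K in the cKO and 61.2 CP10K in the WT library. Fli1, an ETS factor needed for late megakaryocyte genes, averaged 10.2 CP10K in the deep cKO cells, 1.33 CP10K in the shallower cKO cells and 3.35 CP10K in WT cells. Low-Ppbp cells of over 10000 UMIs averaged 7.57 CP10K of Fli1 in cKO and 13.4 CP10K in WT barcodes. Runx1, a regulator of the lineage from its start, averaged 8.74 CP10K in the deep cKO Ppbp-high cells, against 17.0 CP10K in deep cKO low-Ppbp cells. Gata1 averaged 3.09 CP10K in deep Ppbp-high cells and 1.05 CP10K in deep low-Ppbp cells of the cKO library.

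Cargo of the alpha granule stood higher in cKO than in WT Ppbp-high cells under 3000 UMIs. The summed level of 18 cargo genes averaged 118 CP10K in cKO cells under 3000 UMIs and 57.5 CP10K in WT cells under 3000 UMIs. From 3000 to 10000 UMIs it averaged 110 CP10K in 8 cKO cells (median 80.4, up to 407) and 64.1 CP10K in 4 WT cells (median 75.0, up to 92.5), so the medians there lay close together. In the deep cKO cells it averaged 123 CP10K. Vwf, which encodes von Willebrand factor, had a UMI in 29 of 40 cKO cells of at most 10000 UMIs and in 7 of 21 WT cells. Its lowest, median and highest levels were 0, 7.45 and 64.7 CP10K in those cKO cells and 0, 0 and 35.6 CP10K in WT cells, so the ranges overlapped and the median was 0 in WT cells only. Its summed level was 1228 CPM (the CP10K of the summed cells times 100) in those cKO cells and 337 CPM in WT cells, a log2 ratio of 1.83 (1.13 to 2.69). Over all Ppbp-high cells the log2 ratio of Vwf was 1.77, but it was −0.08 with a Ppbp threshold of 5 CP10K, where the deep WT barcode of 75500 UMIs, with 18.8 CP10K of Vwf, enters the WT sum. After thinning to 1000 UMIs, Vwf was seen in 67.3% of cKO cells (52.9 to 79.7%) and 9.52% of WT cells (1.17 to 30.4%). Without thinning the shares were 78.8% and 33.3%. In the deeper Slc4a1-positive barcodes, which should lack Vwf, they were 1.4% of cKO and 3.4% of WT after thinning and 20.4% and 33.0% without it. Low-Ppbp cells showed Vwf after thinning in 14.4% of cKO and 17.5% of WT barcodes, the latter within the interval of WT Ppbp-high cells.

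Thbs1, which encodes the adhesive glycoprotein thrombospondin, averaged 26.2 CP10K in shallower cKO cells, 32.8 CP10K in deep ones and 8.74 CP10K in WT cells. Its log2 ratio in cells of at most 10000 UMIs was 1.39 (0.96 to 1.88). Clu, which encodes the chaperone clusterin, averaged 15.5 CP10K in shallower cKO cells, 6.85 CP10K in deep ones and 5.32 CP10K in WT cells, with a log2 ratio of 1.31 (0.74 to 1.98) at most 10000 UMIs. Clu was not particular to Ppbp-high cells in the cKO library: 16 of 277 low-Ppbp cKO barcodes held at least 50 CP10K of it, up to 334 CP10K, while the highest of 315 WT ones held 9.79 CP10K. Srgn, the proteoglycan that packs granule proteins, averaged 25.5 CP10K in shallower cKO cells and 11.4 CP10K in WT cells, with a log2 ratio of 0.90 (0.52 to 1.32). F5, encoding coagulation factor V, averaged 6.65 CP10K in shallower cKO and 5.64 CP10K in WT cells, a log2 ratio of 0.26 whose interval (−0.39 to 0.97) held 0.

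**Figure D2:**
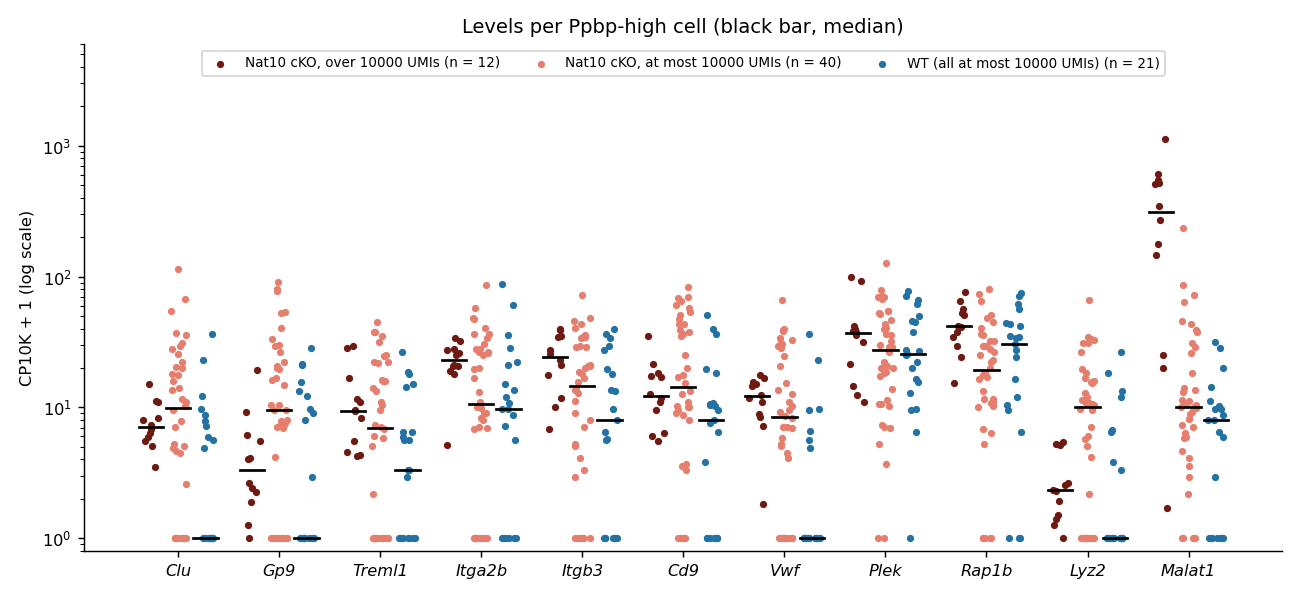
Level of 11 genes in each Ppbp-high cell (CP10K with 1 added, log scale), with deep Nat10 cKO cells left, shallower Nat10 cKO cells in the middle and WT cells right in each group of points; black bars are medians. In Malat1, 7 of the 12 deep cells lie above all shallower cells, and the median of Vwf, Gp9 and Clu is 0 CP10K in WT cells.

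In cells of at most 10000 UMIs, adhesion receptors split into genes that were higher in cKO cells and genes whose interval held 0. The split moved with depth. Gp9, a subunit of the receptor for von Willebrand factor, averaged 17.8 CP10K in cKO cells of at most 10000 UMIs and 6.28 CP10K in WT cells, with a UMI in 29 of 40 and 10 of 21 cells. Its log2 ratio was 1.51 (0.97 to 2.13) in these cells and −0.03 over all Ppbp-high cells, since the deep cKO cells averaged 4.004 CP10K. Gp1ba (14 cKO and 12 WT UMIs) and Gp1bb (20 and 14 UMIs) had log2 ratios of −0.70 and −0.42 at most 10000 UMIs. Both intervals held 0 (−1.91 to 0.55 and −1.46 to 0.70). Treml1, a receptor stored in alpha granules, averaged 10.7 CP10K in shallower cKO cells, 10.9 CP10K in deep ones and 5.67 CP10K in WT cells, with a log2 ratio of 1.10 (0.50 to 1.80) at most 10000 UMIs. Cd9, a tetraspanin of the platelet surface, averaged 24.2 CP10K in shallower cKO and 10.9 CP10K in WT cells, a log2 ratio of 0.64 (0.27 to 1.04). Itga2b and Itgb3 encode the fibrinogen receptor. Itga2b averaged 17.6 CP10K in shallower cKO and 15.9 CP10K in WT cells, and Itgb3 17.3 CP10K and 12.04 CP10K, with log2 ratios of 0.16 (−0.21 to 0.56) and 0.15 (−0.27 to 0.59). Clec1b, the podoplanin receptor, averaged 23.9 CP10K and 16.2 CP10K, yet its summed log2 ratio in these cells was −0.29 (−0.62 to 0.04), and over all Ppbp-high cells it was −0.49, against 0.66 without the deepest WT cell. That cell held 17.2% of the WT UMIs, 62.8% of those of Clec1b and 55.8% of those of Cd9. Under 3000 UMIs the log2 ratios of Clec1b and Itgb3 were 0.90 (0.40 to 1.45) and 0.87 (0.28 to 1.52). Those of Cd9 and Itga2b were 1.42 (0.84 to 2.08) and −0.11 (−0.63 to 0.43).

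Of 13 measured signalling genes of the platelet, 1 was at least 2-fold higher in cKO cells of at most 10000 UMIs and none lower, beside 11.6% and 6.2% of all genes. Plek, encoding the protein kinase C substrate pleckstrin, had lowest, median and highest levels of 0, 26.7 and 125 CP10K in cKO cells of at most 10000 UMIs and 0, 24.7 and 76.2 CP10K in WT cells. The WT range lay within the cKO range. Its summed log2 ratio was −0.45 (−0.73 to −0.16), against 0.10 over all Ppbp-high cells when each cell weighed alike. Rap1b, the small GTPase that switches on the fibrinogen receptor, averaged 22.9 CP10K in shallower cKO cells and 29.3 CP10K in WT cells, with a log2 ratio of −0.77 (−1.07 to −0.46), and 42.9 CP10K in deep cKO cells. Under 3000 UMIs the log2 ratio of Rap1b was −0.25 (−0.66 to 0.17). Over all Ppbp-high cells it was −0.10 with each cell weighing alike. Alox12, the platelet lipoxygenase, averaged 11.02 CP10K in shallower cKO and 12.8 CP10K in WT cells. Gng11, a G protein gamma subunit, averaged 35.9 CP10K in shallower cKO cells, 14.0 CP10K in deep ones and 17.3 CP10K in WT cells, with a log2 ratio of 0.68 (0.37 to 1.01) in cells of at most 10000 UMIs. Slc6a4, the serotonin transporter that loads platelets with serotonin, averaged 7.56 CP10K in shallower cKO cells (65 UMIs in 19 cells) and 1.02 CP10K in WT cells (8 UMIs in 5 cells), a log2 ratio of 2.03 (1.04 to 3.38).

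The summed level of cytoskeletal genes, most of it Tmsb4x, stood higher in shallow cKO than in shallow WT cells. Myl9 had the largest ratio among the cytoskeletal genes named here. It encodes a regulatory light chain of non-muscle myosin and averaged 29.5 CP10K in cKO cells of at most 10000 UMIs, with a UMI in 28 of 40 cells, and 6.58 CP10K in WT cells, with a UMI in 9 of 21. It averaged 5.20 CP10K in the deep cKO cells, where 2 of 12 held a UMI. Its log2 ratio was 1.63 (1.20 to 2.11) in cells of at most 10000 UMIs and −0.33 over all Ppbp-high cells. Tmsb4x, encoding the actin-binding peptide thymosin beta, was seen in every Ppbp-high cell and had the highest level of the list. Its lowest, median and highest levels were 29.8, 519 and 1932 CP10K in shallower cKO cells and 42.1, 194 and 670 CP10K in WT cells. Its log2 ratio was 0.68 (0.61 to 0.76) there and −0.30 over all Ppbp-high cells. Cald1, encoding caldesmon, averaged 19.9 CP10K in shallower cKO and 6.91 CP10K in WT cells, a log2 ratio of 1.25 (0.79 to 1.76). Zyx, Tpm4 and Tuba4a had log2 ratios of 0.01, −0.14 and −0.25, each with an interval that held 0. Summed over 26 genes, the cytoskeleton list averaged 717 CP10K in cKO cells and 399 CP10K in WT cells under 3000 UMIs. Tmsb4x gave most of this, at 49951 CPM in cKO and 29597 CPM in WT cells under 3000 UMIs. Gene by gene, the list's median log2 ratio at most 10000 UMIs was 0.20, beside 0.23 over all genes.

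**Figure D3:**
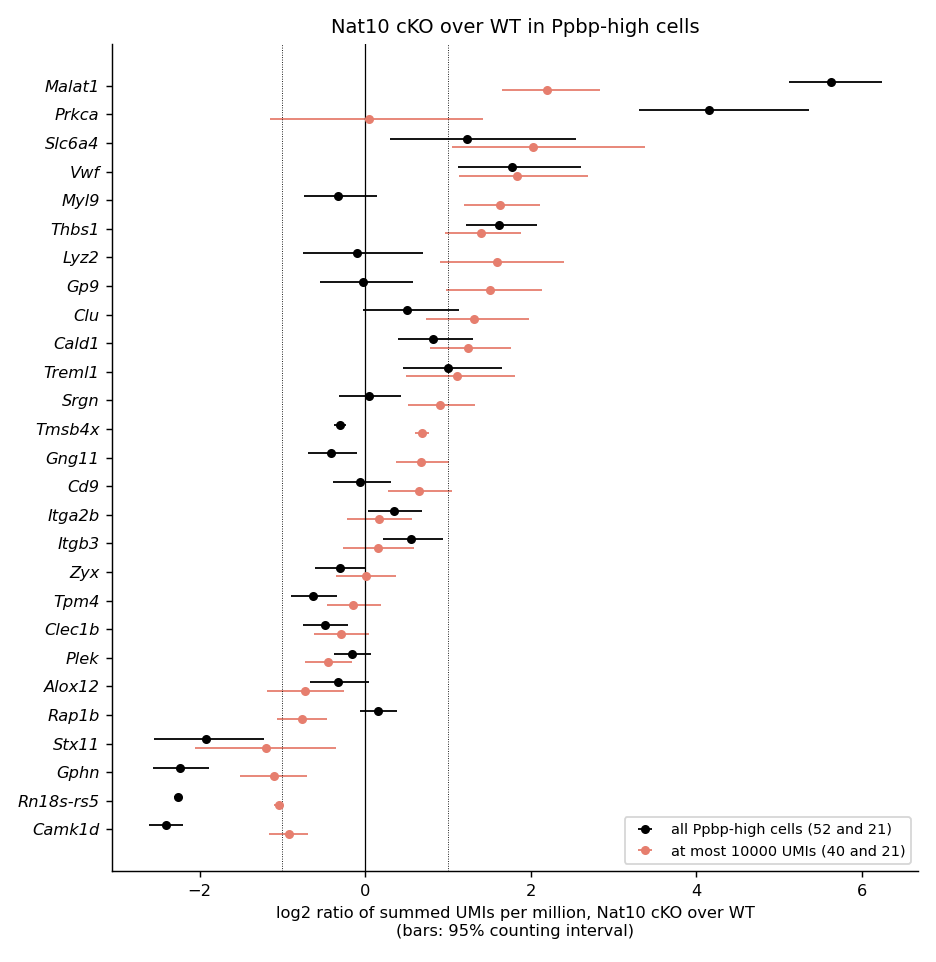
Log2 ratio of Nat10 cKO over WT for 27 genes with 95% counting intervals, over all Ppbp-high cells (black, 52 cKO and 21 WT) and in those of at most 10000 UMIs (red, 40 and 21). Without the deep cells Prkca stands at 0.05, Gp9 at 1.51 and Myl9 at 1.63.

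Counts over lists were read against those of all genes. In cells of at most 10000 UMIs, 387 genes had at least 50 UMIs, of which 45 (11.6%) were at least 2-fold higher in the cKO library and 24 (6.2%) at least 2-fold lower. Of 9 measured cargo genes 4 were 2-fold higher and 1 lower, of 11 adhesion receptors 3 higher and none lower, of 13 signalling genes 1 higher and none lower, and of 16 cytoskeletal genes 2 higher and 1 lower. Their median log2 ratios were 0.90, 0.16, −0.45 and 0.20, beside 0.23 over the 387 genes. Over all Ppbp-high cells, 2032 genes had at least 50 UMIs, with 447 (22%) at least 2-fold higher and 136 (6.69%) at least 2-fold lower, and a median of 0.15. Of 13 transcription factors 6 were higher and 1 lower, with a median of 0.79 that stood at −0.03 when each cell weighed alike, and of 11 cargo genes 5 were higher and none lower. Of 79 cytosolic ribosomal protein genes none was higher and 3 were lower, with a median of −0.34 that stood at 0.40 in cells of at most 10000 UMIs.

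Among 954 genes with at least 100 UMIs, 183 (19.2%) were at least 2-fold higher in the cKO library and 59 (6.18%) at least 2-fold lower. The 12 highest were Malat1, Dlg2, Frmd5, Efna5, Pde1c, Cdkn1a, Rnf180, Inpp4b, Prickle1, Prkca, Slc24a3 and Maml3. Malat1 stood at 27817 CPM in cKO and 555 CPM in WT cells, a log2 ratio of 5.62 (5.12 to 6.24), which was 2.20 (1.65 to 2.84) in cells of at most 10000 UMIs. Prkca, encoding protein kinase C alpha, averaged 39.1 CP10K in the 12 deep cKO cells, 2.22 CP10K in shallower cKO cells and 1.27 CP10K in WT cells. Low-Ppbp cells over 10000 UMIs averaged 14.7 CP10K of Prkca in the cKO and 14.2 CP10K in the WT library. Dlg2, a scaffold protein gene, had 1034 UMIs in cKO cells, 1020 of them in the deep ones, and 2 UMIs in WT cells, a log2 ratio of 5.40 (3.87 to 8.77). Cdkn1a, the cell cycle inhibitor p21, had 161 UMIs in cKO cells and none in WT cells, which makes it at least 5.48-fold higher when 3 UMIs are allowed in the WT sum. One deep cKO cell gave 52.2% of these UMIs. Frmd5, Efna5, Pde1c and Rnf180 also had no WT UMI, at least 6.71-fold, 6.20-fold, 5.69-fold and 4.05-fold higher on the same bound. Frmd5 and Efna5 had no UMI in cKO cells of at most 10000 UMIs, while Pde1c had 57 there. A single cKO cell, of 8517 UMIs, held 34.1% of the 167 cKO UMIs of Pde1c, which accounts for all 57. Inpp4b, Prickle1, Slc24a3 and Maml3 had 1 or 2 WT UMIs, with log2 ratios of 4.51 (2.60 to 10.40), 4.49 (2.95 to 7.86), 4.08 (2.17 to 9.97) and 4.04 (2.13 to 9.93). In cells of at most 10000 UMIs Inpp4b had 36 UMIs in cKO and 1 UMI in WT cells, a log2 ratio of 3.69 (1.68 to 9.60).

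The 12 lowest genes were Ptpn18, Mir6236, Camk1d, Lars2, Otud7b, Rn18s-rs5, Gphn, Tubb2a, Lsm12, Stx11, Prdx6 and Sord. The deepest WT cell, of 8699 UMIs, held 64.6% of the WT UMIs of Ptpn18, 72.2% of Otud7b, 66.7% of Tubb2a, 69.5% of Lsm12 and 62.1% of Prdx6. Without it their log2 ratios were −1.62, −0.74, −0.75, −0.59 and −0.81, against −2.81, −2.26, −2.04, −2.01 and −1.90 with it. Rn18s-rs5, a gene model related to the small ribosomal RNA, stood at 23832 CPM in cKO and 114210 CPM in WT cells, a log2 ratio of −2.26 (−2.31 to −2.22), which was −1.05 (−1.10 to −0.99) in cells of at most 10000 UMIs. The same difference ran through the libraries. Among all other kept barcodes under 3000 UMIs its mean was 636 CP10K in the cKO and 1028 CP10K in the WT library, and over 10000 UMIs 111 CP10K and 213 CP10K. Camk1d, Gphn, Lars2 and Mir6236 also had higher means in shallow barcodes and lower means in the cKO library in these barcodes, as for Camk1d, at 28.5 CP10K in the cKO and 50.1 CP10K in the WT library under 3000 UMIs. Their levels in Ppbp-high cells were not particular to these cells. Stx11, a syntaxin needed for granule release, stood at 148 CPM in cKO and 555 CPM in WT cells, with log2 ratios of −1.92 (−2.56 to −1.23) and, in cells of at most 10000 UMIs, −1.19 (−2.06 to −0.35). Sord, encoding sorbitol dehydrogenase, stood at 170 CPM in cKO and 614 CPM in WT cells.

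Against low-Ppbp cells, Ppbp-high cells carried more of most platelet groups in both libraries. This contrast was chosen by Ppbp and is described without a test. Its sums were not matched for depth. Cells over 10000 UMIs held 4.98e+06 of 5.33e+06 WT low-Ppbp UMIs, while no WT Ppbp-high cell was that deep. Of 9072 genes with at least 100 UMIs, 598 (6.59%) were at least 2-fold higher in Ppbp-high cells of both libraries and 731 (8.06%) at least 2-fold lower. In the cKO library alone 11.8% were higher and 19.6% lower, and in the WT library alone 15.9% and 26.7%. With each cell weighing alike the counts were 428 and 1059, with totals without the rule genes, mitochondrial and ribosomal protein genes 482 and 985, and with median-of-ratios scaling 700 and 547. Of adhesion receptors 22 of 24 were higher and none lower, of signalling genes 17 of 26, of cytoskeletal genes 17 of 25, of cargo genes 6 of 14 and of agonist receptors 5 of 10, with none lower in any. Genes of granule biogenesis and release did not share this, with 3 of 23 higher and 2 lower in both libraries and median log2 ratios of 0.57 in cKO and −0.07 in WT cells. Myl9 was the highest, at 781 CPM in cKO Ppbp-high and 12.7 CPM in cKO low-Ppbp cells, and at 971 CPM and 1.88 CPM in the WT library, log2 ratios of 5.94 (5.57 to 6.35) and 8.96 (8.02 to 10.16). Alox12 had log2 ratios of 4.29 in cKO and 6.48 in WT cells, Gng11 of 3.87 and 4.75, Thbs1 of 3.74 and 4.50, Tubb1, the tubulin of the platelet rim, of 3.69 and 4.57, and Slc6a4 of 4.78 and 4.54. The others among the 12 highest were Lgalsl, Ptprn, Hpse, Gas2l1, Hpgd and Ppp1r14a. Ptprn rested on 1 UMI in WT Ppbp-high cells and Hpgd on 3, and their WT intervals ran from −0.58 to 8.78 and from 1.14 to 5.19 on the log2 scale. Vwf was higher in cKO Ppbp-high cells, with a log2 ratio of 2.002 (1.86 to 2.14), and at −0.29 (−1.11 to 0.35) in WT ones, and the difference between libraries was not tested.

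**Figure D4:**
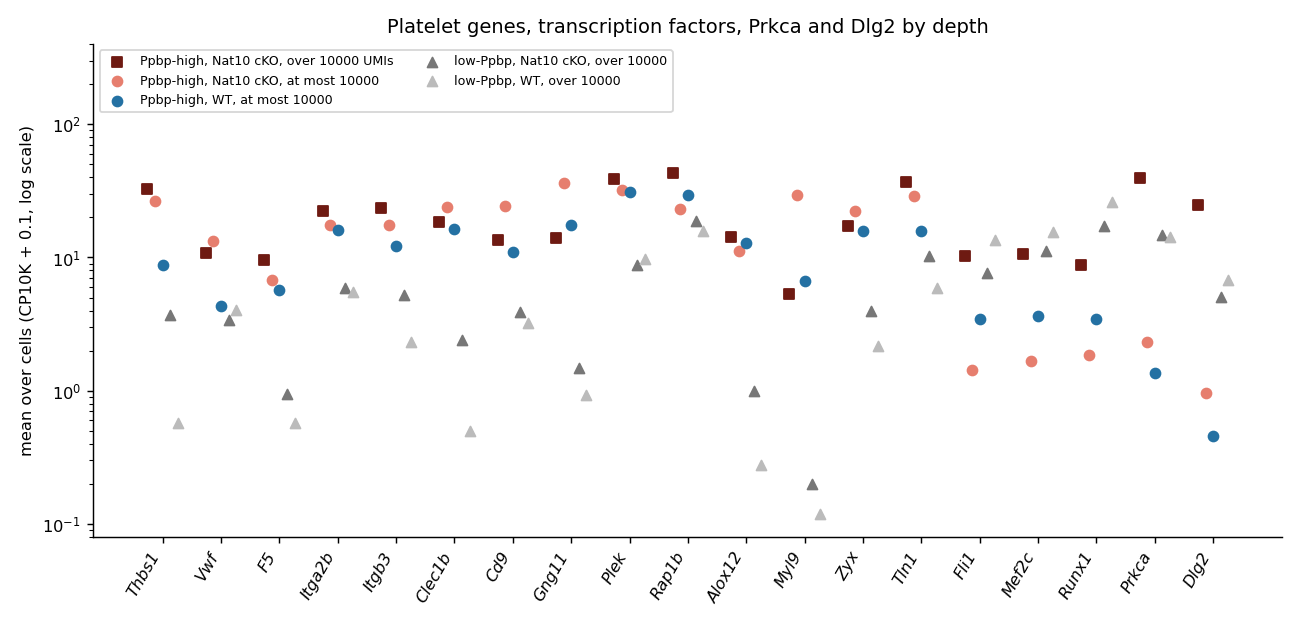
Mean level over cells (CP10K with 0.1 added, log scale) of 19 genes in deep Nat10 cKO Ppbp-high cells, shallower Nat10 cKO and WT Ppbp-high cells, and deep low-Ppbp cells of both libraries. Most receptor, signalling and cytoskeletal genes are higher in Ppbp-high than in low-Ppbp cells, while Runx1 is not.

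Within depth bands the pattern was seen in the cKO library over 10000 UMIs and, for Itga2b, in both libraries at most 10000 UMIs. In the 12 deep cKO Ppbp-high cells against the 114 deep cKO low-Ppbp cells, mean levels were 22.1 and 5.76 CP10K for Itga2b, 23.3 and 5.17 CP10K for Itgb3, 18.5 and 2.30 CP10K for Clec1b, and 38.7 and 8.73 CP10K for Plek. In cells of at most 10000 UMIs, Itga2b averaged 15.9 CP10K in WT Ppbp-high and 1.53 CP10K in WT low-Ppbp cells, and 17.6 CP10K and 2.68 CP10K in the cKO library. Low-Ppbp cells of this depth include barcodes with a single Pf4 UMI.

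Several genes of the cell cycle and of ribosomal proteins were lower in Ppbp-high than in low-Ppbp cells of both libraries. The 12 lowest genes were Mecom, Coro2a, Slc22a3, Aff3, Dach1, Adgrl2, Pdcd4, Alkbh1, Znrf3, Mgat5, Apoe and Nos1ap. Mecom, a transcription factor of stem cells and early megakaryocyte progenitors, had 2 UMIs in cKO and none in WT Ppbp-high cells, against 99.6 CPM in cKO and 200 CPM in WT low-Ppbp cells. Pdcd4, an inhibitor of translation initiation, had 60.7 CPM in cKO Ppbp-high and 447 CPM in cKO low-Ppbp cells, and 158 CPM and 963 CPM in the WT library, log2 ratios of −2.86 and −2.52. Of 13 progenitor genes 2 were at least 2-fold lower in both libraries and none higher in both. In the cKO library alone 8 were lower and 1 higher, beside 19.6% and 11.8% of all 9072 genes. In the WT library alone 3 were lower and 2 higher, near the 26.7% and 15.9% of all genes. Of 41 genes of S phase 7 were at least 2-fold lower in both libraries and none higher, and of 52 genes of G2 and mitosis 17 were lower and none higher. Of 82 cytosolic ribosomal protein genes 18 were lower and none higher. Over all genes 8.06% were lower in both and 6.59% higher. In the cKO library alone 9, 25 and 74 genes of these lists were lower, beside 19.6% of all genes. In the WT library alone 22, 29 and 20 were lower, beside 26.7%. The S phase count in the cKO library and the ribosomal protein count in the WT library were near these shares. The median log2 ratio of the ribosomal protein genes was −1.38 in cKO and −0.80 in WT cells, against −0.19 and −0.32 over all 9072 genes. With each cell weighing alike it was −0.72 and −0.43, against −0.64 and −0.20. Under 3000 UMIs ribosomal protein genes took a median of 11.4% of UMIs in cKO Ppbp-high and 19.6% in cKO low-Ppbp cells. In the WT library these shares were 15.2% and 14.1%, so they were not lower there. From 3000 to 10000 UMIs they were 15.4% and 18.2% in the cKO and 7.59% (4 cells) and 13.2% in the WT library. After thinning to 1000 UMIs, Mki67, a proliferation marker, was seen in 21.2% of cKO and 33.3% of WT Ppbp-high cells, against 37.5% of cKO and 41.9% of WT low-Ppbp cells. Without thinning the shares were 40.4% and 42.9% of Ppbp-high cells, against 73.6% and 74.3% of low-Ppbp cells. Kit, the receptor of stem cell factor, was after thinning seen in 1 of 52 cKO and 1 of 21 WT Ppbp-high cells, against 15 of 277 cKO and 37 of 315 WT low-Ppbp cells, and in 2.6% of cKO and 4.0% of WT Slc4a1-positive barcodes.

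**Figure D5:**
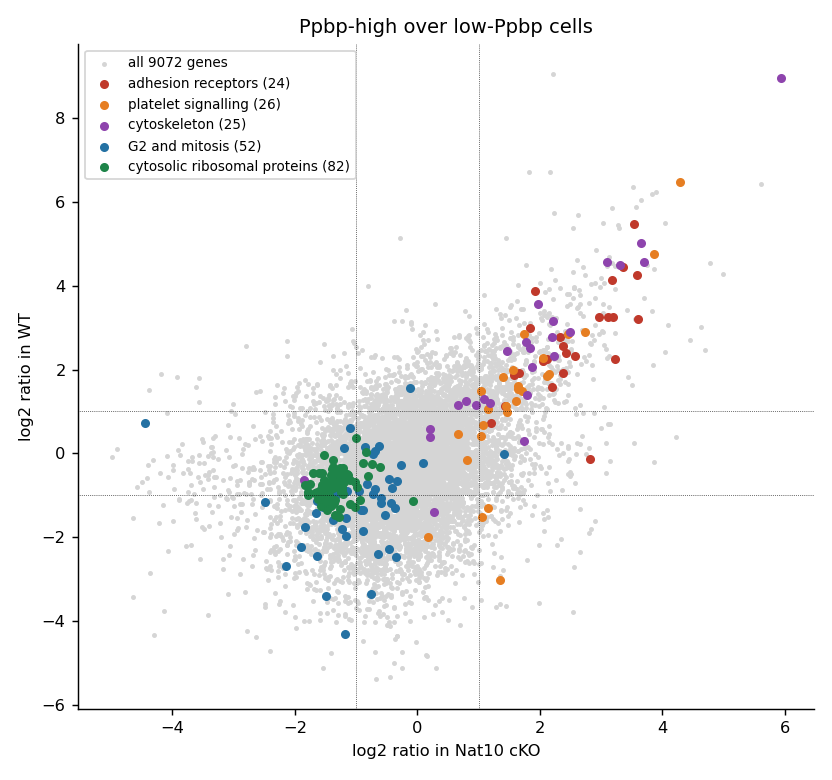
Log2 ratio of Ppbp-high over low-Ppbp cells of each of 9072 genes in the Nat10 cKO library (x axis) and in the WT library (y axis), with 5 gene lists in colour; dotted lines mark 2-fold. Adhesion receptors lie to the upper right, and ribosomal protein and mitotic genes mostly to the lower left.

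Markers of red cells were the most abundant of those of other cell types and were lower in deep cells. The summed level of 12 erythroid genes averaged 52.7 CP10K in cKO and 38.6 CP10K in WT Ppbp-high cells under 3000 UMIs, and 6.56 CP10K in the deep cKO cells, ranging from 0 to 415 CP10K over all cKO and from 4.90 to 157 CP10K over all WT Ppbp-high cells. In low-Ppbp cells of all depths it averaged 43.4 CP10K in the cKO and 48.8 CP10K in the WT library. Of 10 neutrophil genes 4 were at 0 in both libraries, and the list ranged from 0 to 24.4 CP10K in cKO and from 0 to 34.8 CP10K in WT cells. Of 10 monocyte and macrophage genes 8 had a UMI in cKO and 4 in WT Ppbp-high cells, and the list ranged from 0 to 64.7 CP10K in cKO and from 0 to 30.5 CP10K in WT cells. Lyz2, which encodes lysozyme, gave the largest part of the list's mean in both libraries. It averaged 11.4 CP10K in cKO cells of at most 10000 UMIs, 1.73 CP10K in the deep cKO cells and 3.93 CP10K in WT cells, with a UMI in 39 of 52 cKO and 8 of 21 WT cells and a log2 ratio of 1.59 (0.91 to 2.40) at most 10000 UMIs. After thinning it was seen in 44.2% of cKO and 23.8% of WT Ppbp-high cells, against 10.11% of cKO and 8.25% of WT low-Ppbp cells and 1.8% and 5.2% of the Slc4a1-positive barcodes. Without thinning the shares were 75.0% of cKO and 38.1% of WT Ppbp-high cells, against 45.8% and 45.7% of low-Ppbp cells. Barcodes high in Elane or Prtn3, 500 drawn from each library, showed Lyz2 after thinning in 9.8% of cKO and 17% of WT ones. Without thinning these were 74.2% and 65.2%. Csf1r, the defining receptor of monocytes, had 1 UMI in each library, and Cd68 had none. Markers of B and plasma cells reached up to 8.93 CP10K and those of T and NK cells up to 12.8 CP10K in cKO Ppbp-high cells, and neither list had a UMI in WT ones. The part of other cell types or of free RNA in the levels above was not tested.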

How the data were processed

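The data are deposited UMI counts per gene and barcode for 1 Nat10 cKO and 1 WT library (56748 genes; 271499717 and 288303275 UMIs), grouped by the sample labels. Per the submitters' processing notes, the authors used Cell Ranger 7.1.0 and mouse build mm39; the sources used here do not say how barcodes were called. Members and gene lists were chosen with earlier results of these data known; some genes of the lists are not reported here and were left out of them. UMIs were summed over cells and scaled by their total to CPM; log2 ratios had 0.5 added to each sum. Intervals are exact (binomial for shares, conditional binomial for ratios; 95%). Zero counts were bounded with 3 UMIs. With 1 library per genotype no test was made. Named genes were the 12 highest and 12 lowest ratios among genes averaging 50 CPM or more and reaching 100 UMIs, without gene models, haemoglobin, mitochondrial, immune receptor and sex-linked genes, along with genes of the lists. Scrublet (scanpy 1.11.5, expected share 8%) called 544 cKO and 592 WT kept barcodes doublets; these were left in. On simulated counts for the 954 genes of the cKO over WT comparison, 100% of 4-fold changes and 1.46% of unchanged genes passed 2-fold. With 1 library per genotype these shares are no error rate for the genes past 2-fold in the data. Python 3.11.15, numpy 2.4.6, scipy 1.17.1 and pandas 2.3.3 were used.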

Additional observations from a re-analysis of the deposited data

Results flagged for a closer look

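Barcodes outside the filters also carried the signal: 70 of 2240 in the cKO library (3.12%) and 17 of 3311 in the WT library (0.513%) met the gene thresholds; 68 and 16 of them had under 1000 UMIs. The ratio of these shares was 6.09 (3.54 to 11.03), and over all barcodes of the files, Ppbp-high cells included, it was 3.77 (2.60 to 5.59). Itga2b averaged 22.7 CP10K in these cKO barcodes and 20.8 CP10K in the WT ones, against 0.553 and 0.373 CP10K in the other barcodes outside the filters. Gp9 averaged 16.9 CP10K in the cKO and 5.69 CP10K in the WT ones, Clec1b 21.1 and 9.47 CP10K, and Plek 18.3 and 35.1 CP10K. The part of free RNA in these barcodes was not tested.

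Malat1 and Prkca ran in opposite directions in the libraries when Ppbp-high cells were set against low-Ppbp cells. The log2 ratio of Malat1 was 1.98 in the cKO library and −3.56 in the WT library, and that of Prkca 1.34 and −3.02. These differences were not tested. The WT values rest on 28 UMIs of Malat1 and 9 of Prkca in Ppbp-high cells, none of which had over 10000 UMIs, while 12 cKO ones did.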

How the results depend on the processing

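The share ratio of Ppbp-high cells stayed above 1 in all 15 alternatives, from 2.18 to 5.09; the highest, 5.09, came with at least 3000 UMIs, where 20 cKO and 4 WT cells were left. Counts of genes moved with the number of cells and UMIs. For cKO over WT (183 higher, 59 lower), the lower count was 94 with Ppbp of at least 5 CP10K, and the counts were 83 and 15 with at least 20 CP10K, 22 and 4 at most 10000 UMIs, 14 and 1 under 3000 UMIs, 1081 and 423 with a floor of 20 UMIs per gene, 48 and 13 with one of 300, and 84 and 95 with 5 added to each sum. For Ppbp-high over low-Ppbp cells (598 higher, 731 lower), the lower count was 433 with Ppbp of at least 5 CP10K, the counts were 138 and 161 at most 10000 UMIs and 90 and 59 under 3000 UMIs, the higher count was 1399 with a floor of 20 UMIs and 348 with one of 300, and the counts were 1469 and 41 with 5 added. An added 5 weighs more in the WT sum, which is smaller.

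TMM and median-of-ratios scaling gave 212 higher and 48 lower genes each and moved the median log2 ratio of the 954 genes from 0.08 to 0.20. With Ppbp of at least 5 CP10K, Vwf went to −0.077 and Inpp4b to −0.94. Under 3000 UMIs Lsm12 went to 0.85, Otud7b to 0.31, Prdx6 to 0.0285, Ptpn18 to 0.29, Tubb2a to 1.01 and the interferon list to −0.43. With each cell weighing alike Lsm12 went to 0.31 and Tubb2a to 0.29. The cause was not tested. Of the other values for single genes and list medians 1901 stayed within the main value's interval or, for medians and ratios to low-Ppbp cells, within 0.5, and 386 did not. No paired analysis was possible because each genotype has 1 library, and none could be left out. The 21 WT cells, with 50477 UMIs in all, set the width of most intervals.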
